A study of Mus musculus with 12 samples.

Results

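The comparison described here is the response of the spinal cord to experimental autoimmune encephalomyelitis (EAE) in Drd2mGFAP cKO mice: the 3 cKO libraries taken on day 17 of EAE against the 3 basal cKO libraries, which make up 6 of the 12 RNA-seq libraries of the study. All mice were C57BL/6 and 2 to 3 months old. The cKO libraries of both states carry the same conditional deletion of Drd2, the dopamine D2 receptor gene, and the name of the line gives the promoter of Gfap, an astrocyte gene, as its driver. The other 6 libraries, 3 basal and 3 EAE, come from littermates labelled wild type and called control here. The sources used here do not give the antigen, the adjuvant, the treatment of basal mice or whether a library holds 1 cord or a pool. Libraries are labelled as biological replicates, so p-values measure the spread between these samples. Genes on chromosomes X and Y were left out before any step.

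EAE is the standard mouse model of the inflammatory lesions of multiple sclerosis. T cells primed against myelin enter the cord, meet antigen on MHC class II molecules and release interferon gamma, and monocytes, neutrophils and activated microglia follow. Astrocytes and vessels respond with cytokines, chemokines and adhesion molecules, and myelin and axons are damaged in the white matter.

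Drd2 (ENSMUSG00000032259, chr9:49340627-49408177, plus strand, mm10) was at 18.4, 34.8 and 36.2 CPM (counts scaled to library size with TMM factors) in cKO basal 1, 2 and 3, and at 6.996, 12.95 and 20.2 CPM in cKO EAE 1, 2 and 3. Control libraries had a mean of 22.8 ± 4.22 CPM at baseline and 9.52 ± 0.42 CPM in EAE (SD, n = 3 each). On average (29.8 and 13.4 CPM) the cKO libraries were thus not below the controls in whole cord, where neurons also express the receptor, and Drd2 does not check the genotype label here. Without cKO basal 2 and cKO EAE 3, Drd2 fell by 1.46 on the log2 scale (SE 0.33, edgeR adjusted p = 0.00924), and with cKO basal 3 also left out the log2 fold change was -0.87 and did not pass.

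Libraries held 15128913 to 17592105 counts. A pair of cKO libraries differed from the rest of their groups. The first, cKO basal 2, had 17220 genes with a count, whereas the other 11 libraries had 24303 to 26056. Transcripts of ribosomal proteins made up 5.68% of its counts (0.879% to 1.8% elsewhere) and haemoglobin and other erythrocyte genes summed to 1020 CPM (14.9 to 48.7 CPM in the other cKO libraries). The log2 CPM profile of cKO EAE 3 correlated with cKO basal 1 at r = 0.99 and with cKO EAE 1 and 2 at r = 0.957 and 0.943, across genes, which are not independent. Among controls, control basal 1 stood apart, with 24303 genes with a count, and was kept in both fits. Its median log2 difference from the control basal mean was 0.157 for genes up to 2230 bases and -0.149 for genes over 6099 bases. In control basal 2 and 3 these were -0.074 and -0.079, and 0.067 and 0.083. In addition, the Y-linked Ddx3y had 0 counts in every cKO basal library and 74.1 to 77.0 CPM in every cKO EAE library, so EAE and the sex of the mice cannot be told apart in any value below. Cord genes were present throughout: Gfap was at 999 CPM or more and Mbp, the myelin basic protein gene, at 6285 CPM or more in every cKO library.

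With all libraries fitted, no gene of 17972 passed an adjusted p of 0.05 in edgeR's quasi-likelihood test, either higher in EAE (0%) or lower (0%). The smallest adjusted p was 0.0757, shared by 168 genes, and 3518 genes (19.6%) were at an unadjusted p under 0.05, 1751 of them higher and 1767 lower in EAE. All 3 EAE libraries lay above all 3 basal libraries for 1757 genes (9.78%) and below them for 1036 (5.76%). Without cKO basal 2 and cKO EAE 3, which leaves cKO EAE 1 and 2 against cKO basal 1 and 3 with the spread pooled over 10 libraries, 1986 of 18328 genes rose (10.8%) and 613 fell (3.34%). The falls depended on single libraries: with 1 more library left out they numbered 32 without cKO basal 3, 122 without cKO EAE 1 and 1199 without control basal 1, where the rises were 1266, 1793 and 2747. Of these, 772 rises and 125 falls were also free of overlap over all 6 cKO libraries. In what follows, rose and fell refer to this smaller fit, and since no gene passed with all libraries, every such statement rests on leaving out both samples. Counts of list members that rose, fell or were free of overlap are to be set beside the shares of all genes given here. Values of a gene are TMM-scaled CPM in libraries 1, 2 and 3 in that order.

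Leukocytes were followed by marker lists. All 16 of 16 T cell genes rose, with a median log2 fold change of 5.24, or 4.49 with genes that had no basal count set at their lower bound. Monocyte and infiltrating macrophage genes rose in 12 of 12 cases (median 5.84), neutrophil genes in 12 of 12 (median 4.09), dendritic cell genes in 6 of 9 and B and plasma cell genes in 2 of 6. Of T cell effector and checkpoint genes 11 of 16 rose, and of border macrophage genes 3 of 6. Among all genes tested, 10.8% rose. T cell genes summed to 6.31, 8.71 and 7.10 CPM at baseline and to 48.9, 81.6 and 7.54 CPM in EAE. The dendritic cell list summed to 229, 138 and 204 CPM at baseline and to 262, 319 and 203 CPM in EAE. The B and plasma cell list summed to 95.9, 64.1 and 68.2 CPM and to 75.7, 79.6 and 64.5 CPM. Key markers added little at baseline: Itgax was at 0.30, 0.28 and 0.19 CPM and Ccr7 at 0. Igkc was at 0.061, 0.66 and 0.31 CPM and Cd79b at 0.18, 2.18 and 0.25 CPM. The basal sums thus came mostly from other members and do not show these cells at baseline. Without any library left out, 4 of 16 T cell, 8 of 12 monocyte, 4 of 11 neutrophil, 3 of 9 dendritic cell and 1 of 5 B cell genes had EAE libraries wholly above basal ones. Among all genes, 9.78% did. In whole tissue, more cells of a type and more RNA per cell cannot be told apart.

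Cd4, the coreceptor of helper T cells, was at 0.061, 0.66 and 0.062 CPM in the basal libraries and at 6.04, 9.401 and 0.063 CPM in the EAE libraries (log2 fold change 6.80, SE 0.56, edgeR adjusted p = 4.874e-06). EAE 1 and 2 were thus high and EAE 3 was level with baseline. Lck, the kinase that starts T cell receptor signalling, had basal values of 0.55, 0 and 0.44 CPM and EAE values of 4.31, 9.34 and 0.82 CPM, without overlap. Cd8a, the coreceptor of cytotoxic T cells, and Ctla4, an inhibitory receptor of activated and regulatory T cells, had no count in cKO basal 1 and 3 and were at least 25.8-fold and 44.4-fold higher in EAE 1 and 2, against a floor of 3 counts over both basal libraries. In cKO EAE 3 each of the pair had 1 count.

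Among monocyte genes, Ccr2, the receptor that brings inflammatory monocytes into tissue, went from 0.36, 0.66 and 0.19 CPM to 23.3, 49.99 and 0.76 CPM (log2 fold change 7.001, SE 0.55, edgeR adjusted p = 3.521e-06). Arg1, the arginase of alternatively activated macrophages, was at 0.12, 0 and 0.68 CPM at baseline and at 47.9, 98.0 and 0 CPM in EAE. Lyz2, the lysozyme of myeloid cells, was at 9.03, 7.67 and 4.23 CPM at baseline and at 374, 689 and 17.6 CPM in EAE, so that all EAE libraries lay above the basal ones, EAE 3 by the least. Of the neutrophil genes, S100a8, a subunit of calprotectin, was at 2.73, 49.0 and 0.93 CPM at baseline and at 44.6, 24.8 and 12.2 CPM in EAE. Its highest value lay in cKO basal 2, the library with 1020 CPM of erythrocyte genes, and summed neutrophil genes there reached 148 CPM, against 23.8 and 12.9 CPM in the other basal libraries and 208, 174 and 53.8 CPM in EAE. The part of blood in these values was not tested.

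**Figure D1:**
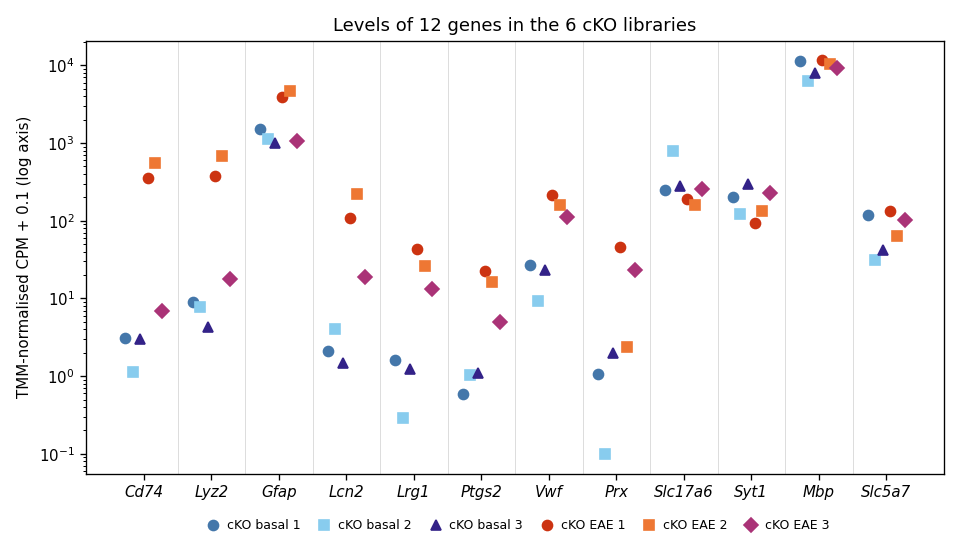
TMM-scaled CPM plus 0.1 (log axis) of 12 genes in the 6 cKO libraries, 1 point per library, basal 1 to 3 and EAE 1 to 3. Cd74 and Lyz2 were high in EAE 1 and 2 and near baseline in EAE 3, whereas Lrg1, Ptgs2 and Vwf were raised in all 3, and Prx was highest in EAE 1 and 3.

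Antigen presentation genes changed as a block. All 11 MHC class II presentation genes rose (median log2 fold change 4.08) and all 17 MHC class I presentation genes rose (median 3.69), against a background of 10.8% of all genes. Cd74, the invariant chain that guides class II molecules to the endosome, was at 3.03, 1.04 and 2.93 CPM at baseline and at 353, 552 and 6.85 CPM in EAE (log2 fold change 7.23, SE 0.62, edgeR adjusted p = 6.424e-06). H2-Ab1, a class II beta chain, went from 0.85, 1.14 and 1.56 CPM to 114, 174 and 3.61 CPM. Both were above baseline in each EAE library, EAE 3 by far the least.

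For class I, Tap1, a subunit of the pump that loads peptides into the endoplasmic reticulum, was at 4.67, 3.03 and 5.54 CPM at baseline and at 91.1, 114 and 6.59 CPM in EAE. Nlrc5, the transactivator of class I genes, went from 2.43, 2.75 and 3.18 CPM to 79.9, 87.6 and 3.55 CPM. In all 6 libraries, 6 of 11 class II and 7 of 17 class I genes had EAE wholly above baseline. Class I genes such as H2-Q4 and H2-Q7 are near-identical copies, and the treatment of reads that match several genes is not stated, so the split between them is uncertain.

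Interferon response genes moved together. Of 20 interferon gamma response genes, 19 rose (median log2 fold change 4.33), and all 20 type I interferon response genes rose (median 3.96). Interferon gamma is known to act through the gamma-activated sequence (GAS), and type I interferons through the interferon-stimulated response element (ISRE). Irgm1, an immunity-related GTPase, was at 9.76, 11.5 and 11.8 CPM at baseline and at 145, 169.5 and 12.6 CPM in EAE (log2 fold change 3.85, SE 0.23, edgeR adjusted p = 9.87e-07). Gbp5, a guanylate-binding protein that assembles on intracellular bacteria, went from 4.12, 0 and 2.93 CPM to 64.5, 81.0 and 5.39 CPM. For both genes EAE 3 was the lowest EAE library and still just above the highest basal one.

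Promoters of these genes were read from RefSeq sequence (GRCm38.p6), from 250 bases before to 50 after each start, to show the letters of the GAS (TTCNNNGAA) and of the ISRE, taken as GAAA, any 2 bases and GAAA again, where they occur. Both strands were searched. Of 32851 promoters of this length, 8.3% held a GAS and 3.44% an ISRE. Among the 13 interferon gamma response genes with an entry, 8 held a GAS and 10 an ISRE, 12 held at least 1 of them and no GAS overlapped an ISRE. Among 15 type I interferon response genes with an entry, 4 held a GAS and 10 an ISRE, and in 2 a GAS overlapped an ISRE. A match describes letters only and is not a tested site. The 5 promoters below, 5′ to 3′ on the gene's strand with GAS and ISRE letters in capitals, show a gene with 1 ISRE (Gbp2, chr3:142620413-142620712, plus strand), neighbours on chromosome 3 with 2 GAS and 1 ISRE each (Gbp5, chr3:142496684-142496983, and Gbp7, chr3:142530086-142530385, plus strand), a gene with 2 overlapping ISRE matches (Irgm1, chr11:48871371-48871670, minus strand) and, from the activated endothelium list, 1 GAS (Icam1, chr9:21015690-21015989, plus strand).
Gbp2: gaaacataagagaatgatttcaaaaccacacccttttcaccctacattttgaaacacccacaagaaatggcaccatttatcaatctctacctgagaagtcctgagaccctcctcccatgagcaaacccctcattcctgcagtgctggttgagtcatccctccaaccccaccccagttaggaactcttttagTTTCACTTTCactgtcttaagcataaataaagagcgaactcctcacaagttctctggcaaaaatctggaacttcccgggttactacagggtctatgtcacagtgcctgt
Gbp5: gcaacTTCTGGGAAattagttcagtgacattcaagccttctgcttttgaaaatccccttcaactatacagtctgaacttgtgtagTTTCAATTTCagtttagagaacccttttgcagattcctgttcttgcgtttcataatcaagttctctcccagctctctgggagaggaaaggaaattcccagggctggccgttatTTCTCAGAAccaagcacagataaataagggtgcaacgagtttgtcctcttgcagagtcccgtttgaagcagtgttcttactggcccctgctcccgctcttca
Gbp7: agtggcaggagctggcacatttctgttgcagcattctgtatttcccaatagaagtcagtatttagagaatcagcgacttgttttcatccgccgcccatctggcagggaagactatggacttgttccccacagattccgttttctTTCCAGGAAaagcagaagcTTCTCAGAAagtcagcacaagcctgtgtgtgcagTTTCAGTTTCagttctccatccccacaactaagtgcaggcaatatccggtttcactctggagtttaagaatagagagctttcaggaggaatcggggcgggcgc
Irgm1: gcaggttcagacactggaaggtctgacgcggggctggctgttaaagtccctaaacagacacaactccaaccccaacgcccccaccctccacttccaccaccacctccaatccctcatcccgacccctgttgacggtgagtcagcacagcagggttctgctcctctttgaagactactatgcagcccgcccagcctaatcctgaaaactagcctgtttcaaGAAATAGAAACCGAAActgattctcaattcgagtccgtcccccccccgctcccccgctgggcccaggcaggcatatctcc
Icam1: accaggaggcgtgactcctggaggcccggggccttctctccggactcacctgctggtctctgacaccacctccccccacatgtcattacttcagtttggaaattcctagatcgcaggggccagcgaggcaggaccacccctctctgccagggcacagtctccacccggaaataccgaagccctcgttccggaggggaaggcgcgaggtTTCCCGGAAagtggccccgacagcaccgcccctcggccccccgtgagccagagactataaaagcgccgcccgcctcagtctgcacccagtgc

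Beside these sequences, the 4 interferon genes that the list rule named were all high in EAE 1 and 2. Iigp1, another immunity-related GTPase, went from 1.76, 1.80 and 1.99 CPM to 130.0, 131.7 and 3.11 CPM, and Gbp3 from 7.03, 2.46 and 5.11 CPM to 88.2, 108 and 6.34 CPM. Of the type I list, Irf7, the factor that amplifies interferon production, was at 2.43, 2.37 and 1.12 CPM at baseline and at 48.8, 73.8 and 2.54 CPM in EAE. EAE 3 exceeded all basal libraries for Iigp1 and Irf7 and fell among them for Gbp3. In all, 9 of 19 interferon gamma and 7 of 20 type I genes were free of overlap. With all libraries fitted, 19 of 19 and 19 of 20 were at an unadjusted p under 0.05 and none passed the adjusted threshold.

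Chemokines carry these cells to the cord: 18 of 22 rose, with a median log2 fold change of 5.501 (4.69 with lower bounds), and 1 fell, Cx3cl1, the neuronal ligand of microglia, named after its values were seen. Cxcl10, which draws T cells that bear Cxcr3, was at 0.61, 0 and 0.44 CPM at baseline and at 92.2, 93.1 and 0.57 CPM in EAE (log2 fold change 7.44, SE 0.32, edgeR adjusted p = 3.749e-07). Ccl2, the main ligand of Ccr2, went from 0.061, 0 and 0.19 CPM to 13.6, 21.7 and 0.38 CPM. Of the chemokine receptors, 9 of 12 rose, among them Ccr1, at 0.24, 2.08 and 0.44 CPM at baseline and at 10.05, 16.9 and 0.63 CPM in EAE. Ccr7, which guides dendritic cells and T cells to lymph nodes, had 0 counts in all basal libraries and in EAE 3, and 10.1 and 14.1 CPM in EAE 1 and 2.

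Of 23 cytokine and cytokine receptor genes, 19 rose (median log2 fold change 2.86). Il1b, an inflammasome cytokine, was at 0.24, 1.14 and 0.19 CPM at baseline and at 22.8, 27.9 and 0.19 CPM in EAE, so that EAE 3 lay within the basal range. Csf2rb, the shared receptor chain for GM-CSF, interleukin 3 and interleukin 5, went from 0.67, 0 and 0.44 CPM to 68.2, 113 and 3.42 CPM, without overlap. Tnf had 0 counts in every basal library and in EAE 3 and reached 2.99 and 4.98 CPM in EAE 1 and 2, at least 43.0-fold above the floor (edgeR adjusted p = 9.758e-05). Il6, with 27 counts over EAE 1 and 2 and 0 in the basal libraries, did not pass (edgeR adjusted p = 0.0581). Signalling genes downstream were also higher: 15 of 16 NF-kB subunits and targets and 12 of 15 JAK-STAT genes rose. Socs3, the feedback inhibitor of cytokine receptors, went from 1.94, 0.66 and 1.68 CPM to 39.1, 54.6 and 2.92 CPM.

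Genes of innate sensing and uptake rose in nearly every case. All 15 pattern recognition and inflammasome genes and all 14 Fc and lectin receptor genes rose, with median log2 fold changes of 3.26 and 5.34. Clec4e, the receptor for mycobacterial cord factor, had no count in any basal library and stood at 17.8, 18.2 and 0.13 CPM in EAE, at least 195-fold above the floor in EAE 1 and 2 and with 2 counts in EAE 3. Clec7a, the beta-glucan receptor, went from 0.85, 2.27 and 0.50 CPM to 63.8, 121 and 1.46 CPM. Cd14, the coreceptor for lipopolysaccharide, went from 2.61, 4.92 and 2.18 CPM to 42.0, 45.1 and 4.82 CPM. For Clec7a and Cd14, EAE 3 lay below cKO basal 2 and above the other basal libraries.

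Microglia genes were higher as well. Of 12 homeostatic microglia genes 11 rose (median log2 fold change 2.05), all but Fcrls, named after its values were seen, and of 16 genes of disease-associated microglia and phagocytes 15 rose (median 2.34). Gpr84, on the homeostatic list, was nearly absent at baseline (0.55, 0 and 0.19 CPM) and at 8.97, 11.95 and 1.08 CPM in EAE, so it did not mark basal microglia here. The part of infiltrating macrophages in these values was not tested. Csf1r, the growth factor receptor that microglia need to survive, was at 78.1, 60.6 and 72.2 CPM at baseline and at 350.5, 677 and 88.4 CPM in EAE. Tmem119, a microglia membrane protein, went from 15.8, 12.2 and 14.4 CPM to 47.1, 81.1 and 14.0 CPM, level with baseline in EAE 3. Proliferation genes rose in 13 of 15 cases, with Top2a, the replication topoisomerase, at 0.97, 0 and 0.93 CPM at baseline and at 26.6, 38.6 and 1.90 CPM in EAE. Complement genes rose in 13 of 16 cases. Serping1, the C1 inhibitor, was at 6.91, 5.11 and 7.72 CPM at baseline and at 77.6, 90.4 and 13.9 CPM in EAE. Its EAE 3 value lay between the basal libraries and EAE 1 and 2.

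The reactive and homeostatic gene lists of astrocytes, the cells in which Drd2 was to be deleted, moved differently. In whole cord, the part of other cells in these values was not tested. Of 21 reactive astrocyte genes 20 rose (median log2 fold change 2.61), against 10.8% of all genes. Of 19 homeostatic astrocyte genes 2 rose (median 0.054), Sox9 and Aqp4, which is near that share. Gfap, the intermediate filament that defines reactive gliosis, was at 1506, 1124 and 999 CPM at baseline and at 3892, 4724 and 1069 CPM in EAE (log2 fold change 1.77, SE 0.23, edgeR adjusted p = 0.000175). Vim, the companion filament vimentin, went from 50.2, 110.3 and 47.9 CPM to 349.7, 543 and 72.0 CPM. Serpina3n, a secreted protease inhibitor, went from 65.7, 7.67 and 50.6 CPM to 678, 1409 and 75.2 CPM. EAE 3 lay within the basal range for Gfap and Vim and just above it for Serpina3n. Cryab, the alpha-B crystallin chaperone, was at 126, 299 and 106 CPM at baseline and at 126, 102 and 92.7 CPM in EAE and did not pass.

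Acute phase and iron handling genes rose in 12 of 14 cases (median log2 fold change 3.90). Lcn2, the iron-siderophore binder lipocalin 2, was at 2.00, 3.98 and 1.37 CPM at baseline and at 107, 224 and 18.95 CPM in EAE (log2 fold change 6.60, SE 0.59, edgeR adjusted p = 8.057e-06). Cp, the ferroxidase ceruloplasmin, went from 12.8, 4.73 and 13.7 CPM to 122, 128 and 32.0 CPM. For both genes EAE 3 lay above every basal library and well below EAE 1 and 2.

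**Figure D2:**
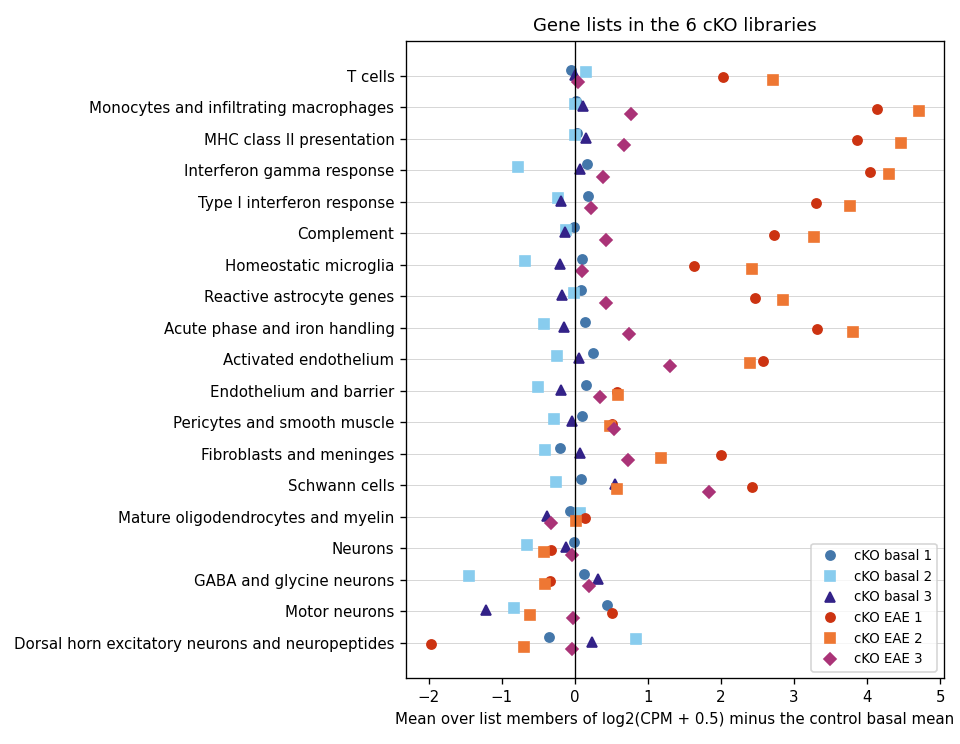
Mean over list members of log2(CPM + 0.5) minus its mean in the 3 control basal libraries, for 19 gene lists (rows) in the 6 cKO libraries (points). Interferon gamma genes stood at 4.04 and 4.30 in EAE 1 and 2 and at 0.38 in EAE 3, and activated endothelium genes at 2.57, 2.39 and 1.30.

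Some genes known from vessels rose in all 3 EAE libraries, as did others such as Lcn2 and Csf2rb. Which cells of the cord made these transcripts was not measured. Of the 5 genes with the smallest unadjusted p in the fit of all libraries, each with an adjusted p of 0.0757, Lrg1, Ptgs2 and Vwf are known from inflamed vessels. Lrg1 (ENSMUSG00000037095, chr17:56119678-56122001, minus strand, mm10), a secreted glycoprotein that modifies TGF-beta signalling in endothelium, was at 1.52, 0.19 and 1.12 CPM at baseline and at 42.9, 26.4 and 13.3 CPM in EAE. Its log2 fold change was 4.80 with all libraries and 4.69 (SE 0.46, edgeR adjusted p = 1.5e-05) without cKO basal 2 and cKO EAE 3. Vwf (chr6:125546774-125686679, plus strand), the von Willebrand factor that endothelium stores and releases for platelet adhesion, went from 26.6, 9.09 and 23.3 CPM to 215, 159 and 111.6 CPM. In both genes the lowest EAE library was several times the highest basal one.

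Ptgs2 (ENSMUSG00000032487, chr1:150100031-150108227, plus strand), the inducible cyclooxygenase of prostaglandin synthesis, was at 0.485, 0.947 and 0.996 CPM at baseline and at 22.6, 16.0 and 4.94 CPM in EAE. Its log2 fold change was 4.17 with all libraries and 4.68 (SE 0.42, edgeR adjusted p = 8.567e-06) in the smaller fit. Of the 17 genes of prostaglandin synthesis and its receptors 9 rose. B3gnt3 (chr8:71690756-71701789, minus strand), a glycosyltransferase that builds ligands for L-selectin, was at 0.55, 0.57 and 0.81 CPM at baseline and at 7.65, 6.35 and 2.79 CPM in EAE. Cyp1b1 (chr17:79706953-79715041, minus strand), a cytochrome P450 of steroid and lipid oxidation, went from 4.06, 2.56 and 3.18 CPM to 23.2, 20.1 and 8.37 CPM. Within this window, the RefSeq promoters of Lrg1, Ptgs2, Lcn2, Cp and Cyp1b1 held no match to the GAS, the ISRE or the NF-kB motif. The NF-kB motif was taken as GGG, A or G, any base, A or T, C or T, C or T again, and CC. It was held by 4.51% of promoters, the GAS by 8.3% and the ISRE by 3.44%, so most promoters lack each of them. The 5 genes were picked without a rule, and Vwf and B3gnt3 were not looked up. Lacking a match therefore does not set these genes apart. Sites that differ from these strings were not counted, so the lack of a match does not show that a gene has no site.

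Of 12 activated endothelium genes 9 rose (median log2 fold change 3.00) and 8 of 12 were free of overlap. The list includes Lrg1 and Vwf, named above, and Ch25h, so its counts are not separate from those genes. Icam1, the adhesion molecule for leukocyte integrins whose promoter is printed above, was at 2.30, 0.38 and 1.31 CPM at baseline and at 32.9, 43.5 and 5.83 CPM in EAE. General endothelium and barrier genes rose in 7 of 16 cases (median 0.67), and 9 of 16 were free of overlap. Pecam1, a junction molecule of endothelium, was at 23.5, 10.98 and 17.6 CPM at baseline and at 47.5, 52.6 and 33.6 CPM in EAE. Cdh5, the endothelial cadherin, went from 18.0, 0.85 and 13.5 CPM to 31.5, 33.6 and 20.5 CPM. The general set therefore moved in the same direction as the adhesion genes, by less.

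Pericyte and smooth muscle genes rose in 2 of 12 cases, Myh11 and Acta2, against 10.8% of all genes. Of 11, 6 had all EAE libraries above the basal ones, against 9.78% of all genes. Rgs5, a pericyte regulator of G protein signalling, was at 112.3, 24.0 and 114 CPM at baseline and at 154, 156 and 175 CPM in EAE, highest in EAE 3, and did not pass (log2 fold change 0.44, SE 0.14, edgeR adjusted p = 0.0552). Fibroblast and meningeal genes rose in 8 of 11 cases (median log2 fold change 1.85) and genes of the matrix and its proteases in 10 of 17. Col1a1, a chain of type I collagen, was at 9.52, 3.503 and 9.21 CPM at baseline and at 78.3, 80.1 and 14.4 CPM in EAE. Fn1, fibronectin, went from 57.4, 27.7 and 62.3 CPM to 392, 982 and 94.2 CPM. Dcn, the collagen-binding proteoglycan decorin, went from 9.46, 12.9 and 9.28 CPM to 109.7, 35.9 and 32.6 CPM. All of these had EAE 3 above every basal library.

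Schwann cell genes, which mark nerve roots in a cord sample, followed another order of libraries. Prx, the periaxin of Schwann cells, was at 0.97, 0 and 1.87 CPM at baseline and at 45.6, 2.30 and 23.1 CPM in EAE (log2 fold change 4.06, SE 1.03, edgeR adjusted p = 0.0185), which dropped to 0.69 without cKO EAE 1 (edgeR adjusted p = 0.658). It was high in EAE 1 and 3 and close to the highest basal library in EAE 2. In all, 4 of 9 Schwann cell genes rose, among them Egr2, Pmp22 and Prx, and Pmp22 too lost its call without cKO EAE 1 (log2 fold change 0.51). On the other hand, 8 of 9 had cKO EAE 3 above every basal library, against 19.6% of all genes. The list stood at 2.43, 0.58 and 1.84 log2 units over control baseline in EAE 1, 2 and 3. Ogn, the fibroblast proteoglycan osteoglycin, had the same order, with 30.8, 2.12 and 14.6 CPM in EAE against 1.15, 0.57 and 2.80 CPM at baseline, and a log2 fold change of 3.04 that became 0.095 without cKO EAE 1. The part that roots left on the cord play in these values was not tested.

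In the smaller fit, neuronal genes were lower or level. Of 16 general neuron genes 4 fell, Syt1, Syn2, Rbfox3 and Gria2, and none rose (median log2 fold change -0.35), against a background of 3.34% of genes that fell, a share that moved with single libraries. Syt1, the calcium sensor of synaptic vesicles, was at 202, 124 and 296 CPM at baseline and at 93.1, 132 and 226 CPM in EAE (log2 fold change -1.16, SE 0.21, edgeR adjusted p = 0.00203). Its cKO basal 2 value lay among the EAE values, so the groups overlapped. Over all 6 cKO libraries, EAE lay wholly below baseline for 0 of 16 general neuron and 1 of 12 GABA and glycine neuron genes. Among all genes, 5.76% did so. Against the mean of all 3 basal libraries, EAE 1, 2 and 3 differed by -0.060, -0.157 and 0.221 log2 units for general neuron genes. For GABA and glycine neuron genes the values were 0.0027, -0.067 and 0.525. Of 12 genes of GABA and glycine neurons 4 fell, Gad1, Gad2, Glra3 and Pax2, and Gad1, the main enzyme of GABA synthesis, was at 176, 177 and 276 CPM at baseline and at 91.7, 121 and 199 CPM in EAE. Without cKO basal 3, Gria2, Gad1 and Glra3 no longer passed, at log2 fold changes of -0.46, -0.71 and -0.80.

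Of 13 genes of dorsal horn excitatory neurons and neuropeptides 3 fell, Slc17a6, Cck and Sst, with a median log2 fold change of -1.27 over the list. Slc17a6, the vesicular glutamate transporter VGLUT2, was at 248, 799.9 and 284 CPM at baseline and at 188, 161 and 258 CPM in EAE. Cck, the cholecystokinin neuropeptide, went from 33.1, 161 and 45.9 CPM to 11.9, 19.8 and 28.1 CPM, without overlap. The highest basal value of both was in cKO basal 2. The lowest dorsal horn list value was also that of cKO EAE 1, at -1.98 log2 units over control baseline, against -0.70 in EAE 2 and -0.039 in EAE 3.

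None of 10 motor neuron genes passed in either direction. Chat, the enzyme of acetylcholine synthesis, was at 38.6, 0.66 and 11.9 CPM at baseline and at 47.9, 20.1 and 34.0 CPM in EAE. Slc5a7, the choline transporter, was at 118, 30.9 and 42.5 CPM at baseline and at 135, 63.3 and 103 CPM in EAE (log2 fold change 0.29, SE 0.44, edgeR adjusted p = 0.743). The basal libraries themselves spanned a wide range here, since the 10 genes summed to 484, 266 and 148 CPM at baseline and to 533, 262.5 and 382 CPM in EAE. A change in motor neuron genes was not detectable against that spread.

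Myelin genes were not lower. Of 18 genes of mature oligodendrocytes and myelin 2 rose, Cldn11 and Hapln2, near the share of all genes (10.8%). None fell and the median log2 fold change was 0.25. Mbp was at 11440, 6285 and 8083 CPM at baseline and at 11640, 10340 and 9185 CPM in EAE, and did not pass (log2 fold change 0.16, SE 0.23, edgeR adjusted p = 0.727). Cldn11, the tight junction protein of myelin, went from 402, 307 and 356 CPM to 643, 734 and 314 CPM, with EAE 3 within the basal range. None of 11 oligodendrocyte precursor genes and none of 17 cholesterol synthesis genes passed, whereas 7 of 11 genes of lipid uptake and efflux rose. Msr1, the scavenger receptor that takes up modified lipoproteins and myelin debris, was at 0.18, 0 and 0.19 CPM at baseline and at 14.8, 26.2 and 0.19 CPM in EAE.

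**Figure D3:**
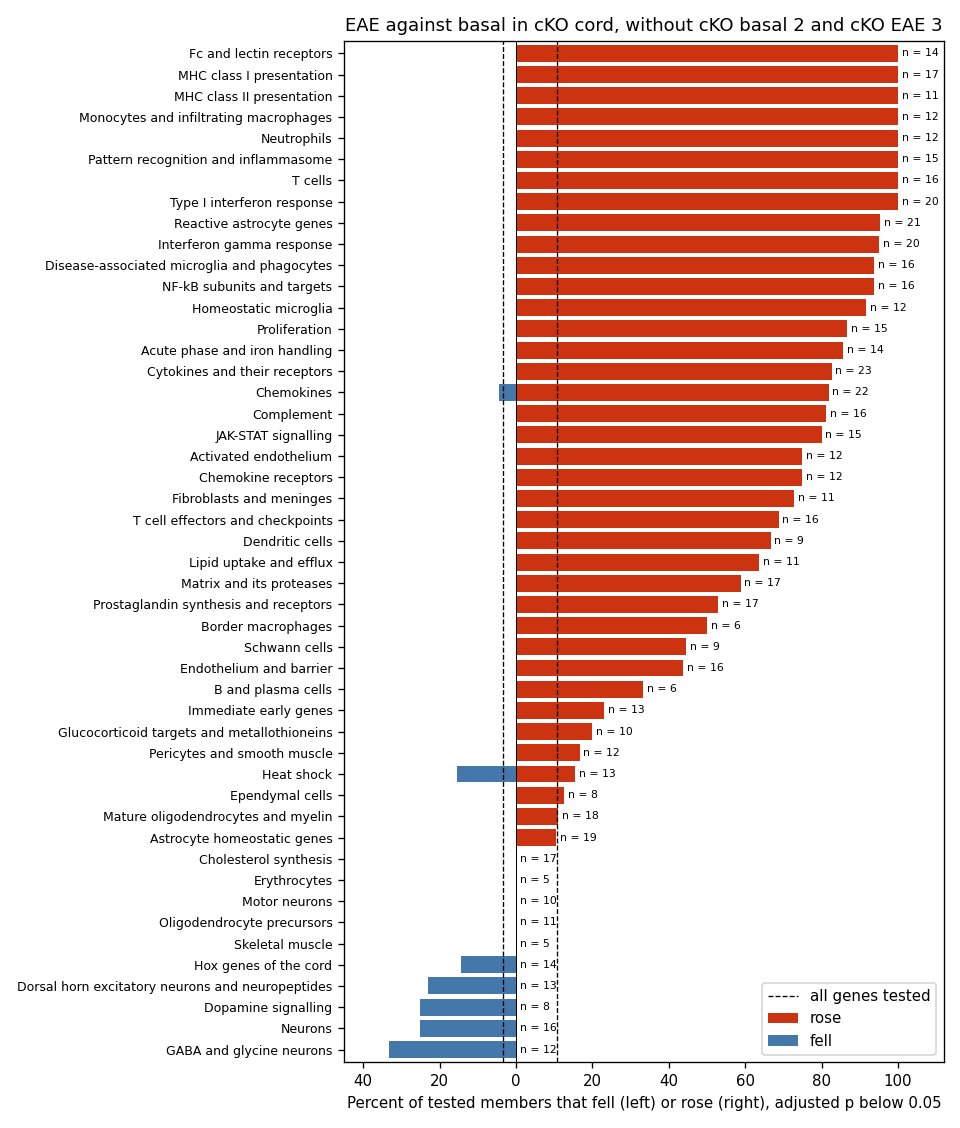
Percentage of tested list members that fell (left) and rose (right) without cKO basal 2 and cKO EAE 3, for lists with 5 or more tested members, with dashed lines at the share of all genes (3.34% and 10.8%). T cell, monocyte, neutrophil, antigen presentation and interferon lists lie at or near 100%, T cell effector, B cell, border macrophage and dendritic cell lists lower, and motor neuron, oligodendrocyte precursor and cholesterol lists at 0.

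Outside these groups, the largest fall by the naming rule was that of Myoc (chr1:162639155-162649693, plus strand), the secreted glycoprotein myocilin, at 38.9, 71.6 and 30.4 CPM at baseline and at 9.81, 5.35 and 24.8 CPM in EAE (log2 fold change -2.20, SE 0.36, edgeR adjusted p = 0.00109). Others on that list were Nppc, a natriuretic peptide, Lbx1 and Mab21l1, developmental regulators, and Gdf10, a TGF-beta family ligand, with log2 fold changes from -1.63 to -1.44. Lbx1 was at -0.76 and did not pass without cKO EAE 1. Of 8 dopamine signalling genes 2 fell, Drd2 and Th, the rate-limiting enzyme of dopamine synthesis, at 6.43, 0 and 10.5 CPM at baseline and at 1.495, 2.93 and 8.05 CPM in EAE. Of 13 heat shock genes Hspb1 and Hspb8 rose (Hspb8 not without cKO basal 3) and the adjacent, near-identical Hspa1a and Hspa1b fell, and of 14 Hox genes of the cord Hoxa9 and Hoxa10 fell. Of 10 glucocorticoid targets and metallothioneins Mt1 and Mt2 rose. Mt1 was at 408, 5661 and 443 CPM at baseline and at 881, 967 and 513 CPM in EAE, so with cKO basal 2 kept the EAE mean lay below the basal one. Of 13 immediate early genes 3 rose, Junb, Atf3 and Jun, and of 8 ependymal genes 1 rose, Rarres2. None of 4 sensory neuron, 5 skeletal muscle and 5 erythrocyte genes passed. Beside these counts, 10.8% of all genes rose and 3.34% fell.

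cKO EAE 3 was then read on its own, against the basal cKO libraries, as 1 library without a test. It exceeded all 3 basal libraries for 3528 of 17972 genes (19.6%) and lay below all for 2734 (15.2%). Of the genes that rose in EAE 1 and 2, 768 of 1976 (38.9%) lay above all basal libraries in EAE 3, and of those that fell, 125 of 612 (20.4%) lay below. These shares say little of the size: over control baseline the rising genes had a median log2 difference of 1.38 in EAE 1, 1.74 in EAE 2 and 0.12 in EAE 3, and the falling genes -0.70, -0.52 and -0.0039. By list means, EAE 3 stood at 0.040 for T cells, 0.54 for pericytes, 0.68 for MHC class II, 0.74 for acute phase genes and 0.77 for monocytes. It stood at 1.30 for activated endothelium, 1.31 for neutrophils and 1.84 for Schwann cells. The neutrophil list was at 1.92 in cKO basal 2.

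A ratio of at least 2 to the highest basal library, at 2 CPM or more, was reached in EAE 3 by 54 genes (0.3%). The 10 with the largest ratio included Prx, Lrg1, Mfap5, Ch25h, Ogn, Csf2rb, Ptgs2, Lcn2 and Cldn19. Of these Prx and Cldn19 belong to Schwann cells, and Mfap5, a microfibril protein, and Ogn to connective tissue. Ch25h, the enzyme that makes 25-hydroxycholesterol, was at 0.42, 0 and 0.25 CPM at baseline and at 10.1, 12.6 and 2.28 CPM in EAE. Cldn19, a claudin of Schwann cells, was at 0.12, 0 and 0.81 CPM at baseline and at 5.92, 0.31 and 3.80 CPM in EAE, and passed neither with all libraries (edgeR adjusted p = 0.182) nor without cKO basal 2 and cKO EAE 3 (edgeR adjusted p = 0.106). Among the largest rises of EAE 1 and 2 that were free of overlap, Ms4a4b, F7, Sirpb1c, Sh2d2a, Mefv and Klrk1 had 1 count each in EAE 3 against 0 at baseline, Trem1 had 2 and Soat2 had 3, and their lack of overlap rests on these counts.

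**Figure D4:**
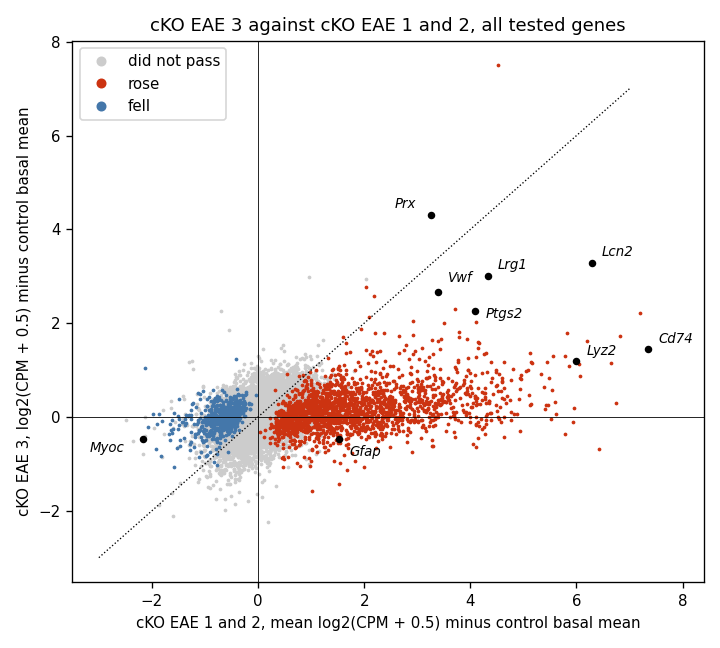
Each tested gene by its mean log2(CPM + 0.5) in cKO EAE 1 and 2 (x) and in cKO EAE 3 (y), both minus the control basal mean; red genes rose and blue genes fell without cKO basal 2 and cKO EAE 3, grey did not pass, and the dotted line marks equal differences. Most red genes lie far to the right near 0 on y, with medians of 1.55 and 0.12, while Prx, Lrg1 and Vwf lie higher.

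The response of control mice to EAE, the closest comparison, served to see where the cKO response differed. It called 3071 genes with all libraries and 8345 without cKO basal 2 and cKO EAE 3, but the fits have unequal numbers of libraries in the arms and such counts do not compare sizes. The difference itself, cKO response minus control response, called no gene (0%) in either fit by edgeR's quasi-likelihood test: the smallest adjusted p was 0.545 with 1645 genes at an unadjusted p under 0.05 in the first, and 0.0895 with 3320 in the second, 1498 (8.17%) of them higher and 1822 (9.94%) lower in cKO. In these fits no difference between genotypes was therefore shown for any single gene, and the values that follow describe. That result depended on the libraries and on the tool. With control basal 1 also left out, the second fit called 558 genes, and limma voom with sample weights called 761 in the same 10 libraries.

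Interferon and antigen presentation lists had lower medians in cKO than in control libraries. The median log2 fold change of interferon gamma genes was 4.33 in cKO and 6.10 in control, and 16 of 20 had a lower response in cKO at an unadjusted p under 0.05. For MHC class I presentation the count was 14 of 17, for JAK-STAT genes 12 of 15, for pattern recognition genes 10 of 15 and for reactive astrocyte genes 9 of 21. Smaller shares were lower in related lists: 7 of 20 type I interferon, 5 of 11 MHC class II and 3 of 16 T cell genes, against 9.94% of all genes. Of 12 neutrophil genes 1 had a lower and 1 a higher response, and their median was 4.09 in cKO and 3.14 in control. With all libraries fitted, 1645 of 17972 genes differed in either direction at an unadjusted p under 0.05. Far fewer interferon gamma and JAK-STAT genes did so then, 4 of 19 and 1 of 15, although the interferon gamma medians were 4.16 and 6.12. The other counts dropped by less, to 10 of 17 MHC class I, 6 of 15 pattern recognition and 6 of 21 reactive astrocyte genes. Gbp5 averaged 2.64 ± 0.40 CPM in control basal and 211 ± 54.9 CPM in control EAE libraries (SD, n = 3 each), against 64.5 and 81.0 CPM in cKO EAE 1 and 2. Iqgap1, a scaffold of the cell cortex, was among the 5 genes with the smallest p for a lower response in cKO (log2 -1.43, SE 0.21, edgeR adjusted p = 0.0895). The others named by the rule were Wfdc17, Ccl9, Slc16a3 and Fosl2.

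In some lists of myelin, neuron and astrocyte genes the medians differed the other way. Myelin genes had a median log2 fold change of 0.25 in cKO and -0.55 in control, with 15 of 18 higher at an unadjusted p under 0.05, and motor neuron genes 0.39 and -1.89, with 9 of 10. For general neuron genes 9 of 16 and for homeostatic astrocyte genes 7 of 19 had a higher response in cKO. Among all genes tested, 8.17% did. In other neuron lists, 4 of 12 GABA and glycine neuron genes and 1 of 13 dorsal horn genes had a higher response, the latter near the share of all genes. The dorsal horn median was -1.27 in cKO and -1.02 in control. With all libraries fitted, 5 of 18 myelin, 6 of 10 motor neuron, 7 of 16 general neuron and 5 of 19 homeostatic astrocyte genes differed in either direction at an unadjusted p under 0.05. Of all genes, 1645 of 17972 did. Mbp averaged 12690 ± 269.7 CPM in control basal and 6735 ± 1142 CPM in control EAE libraries (SD, n = 3 each). It was at 11440, 6285 and 8083 CPM in cKO basal and at 11640, 10340 and 9185 CPM in cKO EAE libraries. Slc5a7 averaged 83.9 ± 14.8 CPM in control basal and 19.8 ± 6.77 CPM in control EAE libraries. In cKO it was at 118, 30.9 and 42.5 CPM at baseline and at 135, 63.3 and 103 CPM in EAE. The cKO baselines of both genes were scattered and mostly below the control basal mean. Their part in the higher response was not tested. The 5 named genes with a higher response in cKO were Etnppl, Nkain2, Ntsr2, Pls1 and Crtac1, and all had a negative log2 fold change in control. Etnppl, an astrocyte phospholyase, was at 59.2, 73.7 and 66.1 CPM at baseline and at 62.4, 61.7 and 59.5 CPM in EAE in cKO, and went from 69.5 ± 4.41 to 30.5 ± 2.29 CPM in control (SD, n = 3 each). Vessel, pericyte and fibroblast lists had medians of 0.67, 0.48 and 1.85 in cKO and 0.52, 0.40 and 1.38 in control.

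**Figure D5:**
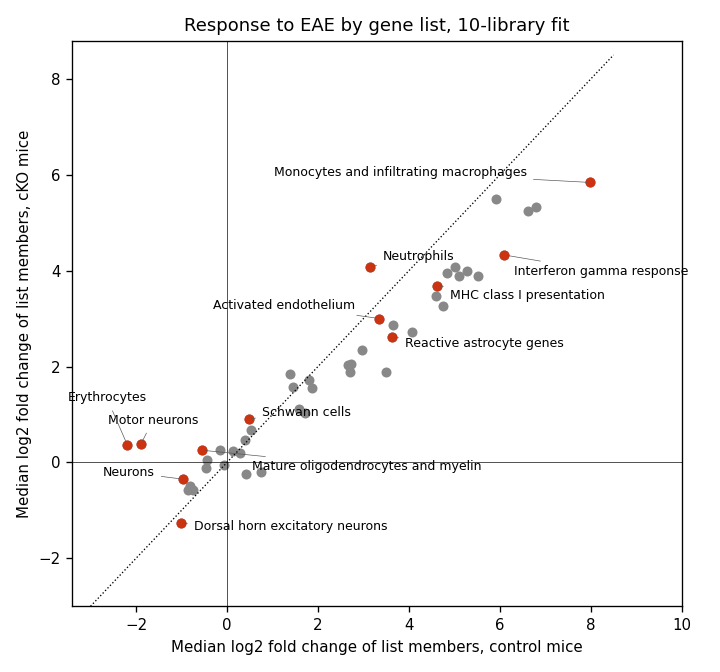
Median log2 fold change of each gene list in EAE against basal, control mice on x and cKO mice on y, without cKO basal 2 and cKO EAE 3; the dotted line marks equal medians and red points are labelled. Interferon gamma genes lie below the line (6.10 and 4.33) and motor neuron genes above it (-1.89 and 0.39).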

How the data were processed

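Total RNA of 12 spinal cords or cord pools was sequenced, 3 libraries in each of 4 groups taken from the labels. The authors deposited 1 table of raw counts per gene. Per the submitters' processing notes, HISAT2 2.0.5 aligned the reads to mm10 and featureCounts 1.5.0-p3 did the counting. The sources used here do not state strand, multiple matches or filters, so overlapping, antisense and near-identical genes are uncertain.

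Of 54532 genes, 4184 on X or Y were left out first. Counts were tested with edgeR 4.0.16 (TMM, filterByExpr by group, quasi-likelihood F test, not robust) and limma 3.58.1 in R 4.3.3, with Benjamini-Hochberg adjustment over all genes tested and a threshold of 0.05. The first fit used 12 libraries (17972 genes); the second left out cKO basal 2 and cKO EAE 3 (18328 genes, 10 libraries). Fold changes compare cKO EAE with cKO basal, and the difference between genotypes is the interaction term. For genes with no basal count, a floor of 3 counts over the group gives a lower bound. List levels use log2(CPM + 0.5). The script was tested on simulated data.

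Named genes were Drd2, the 5 smallest p with all libraries, up to 12 rises and 12 falls of the second fit with a mean of at least 1 CPM and no overlap over 6 cKO libraries, up to 4 members of each of 49 lists by p (674 symbols, 40 of them tested in no fit), 10 genes of cKO EAE 3 by ratio, 5 interaction genes each way and a fixed set. Members and lists were chosen with earlier results of these data known. Alternatives were other scaling, filters, tools (DESeq2 1.42.0, voom with sample weights), a replicate block, X and Y genes kept, and each library left out. Some genes are not reported here.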

Additional observations from a re-analysis of the deposited data

Results flagged for a closer look

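The 19 homeostatic astrocyte genes had a mean log2 difference between EAE and basal libraries of 0.237 in cKO and -0.34 in control mice, and every cKO EAE library lay above the cKO basal mean while every control EAE library lay below the control one. By library the differences were 0.289, 0.243 and 0.179 in cKO and -0.314, -0.315 and -0.392 in control. Against cKO basal 1 and 3 alone, the cKO values were 0.101, 0.0553 and -0.00856, so the third library no longer shared the direction once cKO basal 2 was left out. The difference between genotypes was not tested on the list.

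The 4 sensory neuron genes did the same, with means of 0.217 in cKO and -0.346 in control. Without cKO basal 2 the cKO values were 0.0353, -0.149 and -0.177, and the opposite direction was lost in EAE 2 and 3. This difference was not tested either.

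Ddx3y, a Y-linked gene outside the genes tested, had at least 74.1 CPM of the library total in each cKO EAE library and 0 in each cKO basal library. It separates the groups as completely as EAE does, so sex and EAE cannot be told apart.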

How the results depend on the processing

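With all libraries, the count of genes that passed depended on the method: 0 by edgeR, 443 without a filter on low counts, 1188 by DESeq2's Wald test, 3510 with voom and sample weights and 2 (Lrg1 and Ptgs2) with X and Y genes kept. Leaving out 1 library gave 0 to 1037, and 1037 (999 higher, 38 lower) came without cKO EAE 3. The cause of these differences was not tested. Without cKO basal 2 and cKO EAE 3, the 2599 calls became 1298 without cKO basal 3 and 3946 without control basal 1, the ends of the range for 1 further library left out; the 613 falls became 32 and 1199 there. The other scaling, filter and tool settings stayed within 1.5 times, at 2431 to 3158. For the difference between genotypes, voom with sample weights called 2914 with all libraries and 761 in the smaller fit, where edgeR called 0 to 558 with 1 library left out, 558 without control basal 1, 511 without cKO EAE 2 and 1 without control basal 3.

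Replicate numbers are shared across groups, but same-numbered cKO libraries deviated together only at r = 0.025, 0.040 and 0.128, so they were taken to share a number only. With a replicate block, 0 genes passed with all libraries and 2009 (1629 higher, 380 lower) in the smaller fit. Of 170 named genes that passed there, 124 kept their call and direction under every alternative. Leaving out a further library ended 45 calls for cKO basal 3, 34 for cKO EAE 1, 22 for cKO EAE 2 and 18 for cKO basal 1. Depth limits the genes with no basal count to lower bounds.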
